A study of Mus musculus with 27 samples.

Results

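The 10 genes described here, known as targets of the oxygen-sensing pathway, were followed in C2C12 myotubes collected every 6 h. They are Pdk1, Bnip3, Slc16a3, Ak4, Egln3, Ankrd37, Vegfa, P4ha1, P4ha2 and Ndrg1, 10 of the 20446 genes in the count table. They were chosen by name because their transcripts alternated between successive collections, so the difference between the collections at 12, 24, 36, 48 and 60 h and the collections at 18, 30, 42 and 54 h chose them and is given as a description, without a test. Drift over the course, a 24 h rhythm and differences among the collections of each set were not used to choose them. Nor was the change in depth of the dips from the first day to the second. All of these were tested.

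In cells with enough oxygen, prolyl hydroxylases mark the HIF-α subunits for destruction through the von Hippel-Lindau protein. When oxygen falls the subunits persist, pair with ARNT and bind short elements in the promoters and enhancers of their targets. The targets move energy production towards glycolysis and lactate export, remove mitochondria, call in vessels, alter collagen processing and feed back on the sensor itself. Skeletal muscle uses these genes during exercise and low blood supply.

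C2C12 cells are mouse myoblasts that form multinucleated myotubes once serum is withdrawn. Cells were grown in DMEM with 10% FBS, plated at 50000 per well, taken to about 90% confluence and switched to DMEM with 2% horse serum. Before every library was made, the culture had received 50% horse serum over 2 h, which sets the circadian clocks of cultured cells to a common phase. No unpulsed culture was analysed here. The 15 libraries of the collections at 12, 24, 36, 48 and 60 h and the 12 libraries of the collections at 18, 30, 42 and 54 h, 3 at each of 9 time points, share this genotype and treatment and differ by label only in the hours after the pulse. They are called the multiples of 12 h and the collections between.

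The libraries held 18.7 to 25.2 M counts at the multiples of 12 h and 15.2 to 26.6 M at the collections between. CPM are read counts scaled by TMM and library depth, except that the marker sums given next were scaled by the library total alone. The 10 summed myotube markers, among them Ckm, Acta1 and Myog, gave 15919 to 18788 CPM at the multiples of 12 h and 16173 to 19413 CPM at the collections between. The 5 myoblast markers summed to 137 to 175 CPM at the multiples of 12 h and 140.1 to 179 CPM at the collections between. The 10 immune and endothelial markers summed to 7.30 to 10.9 CPM at the multiples of 12 h and 8.24 to 10.2 CPM between, and the 5 adipocyte markers to at most 0.128 CPM at the multiples of 12 h and 0.108 CPM between, with 1 of them at 0 in every library. In RNA from whole cultures, fewer cells of a type and less RNA per cell cannot be told apart. The labels give neither the hour of day, the plate nor any change of medium, and with a step of 6 h a wave with a period of 12 h and a difference between the sets of collections cannot be told apart.

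The promoters of the 5 genes with the largest alternation are shown because the letters ACGTG and GCGTG, the core of the element that HIF binds, can be seen in them. Each is the 250 bases before the first transcript start listed by RefSeq (GRCm38.p6), read 5′ to 3′ on the strand of the gene, with matches to ACGTG or GCGTG on either strand in capitals (CACGT and CACGC where the match lies on the other strand). They are chr8:45999851-46000100 on the minus strand for Ankrd37, chr4:101419039-101419288 on the plus strand for Ak4, chr7:138909507-138909756 on the minus strand for Bnip3, chr11:120948817-120949066 on the plus strand for Slc16a3 and chr2:71872974-71873223 on the plus strand for Pdk1.
Ankrd37: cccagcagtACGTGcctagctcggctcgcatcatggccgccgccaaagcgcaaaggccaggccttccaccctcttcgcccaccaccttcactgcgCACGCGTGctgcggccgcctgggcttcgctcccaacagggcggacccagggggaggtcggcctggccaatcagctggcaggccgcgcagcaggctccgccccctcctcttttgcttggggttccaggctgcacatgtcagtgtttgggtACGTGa
Ak4: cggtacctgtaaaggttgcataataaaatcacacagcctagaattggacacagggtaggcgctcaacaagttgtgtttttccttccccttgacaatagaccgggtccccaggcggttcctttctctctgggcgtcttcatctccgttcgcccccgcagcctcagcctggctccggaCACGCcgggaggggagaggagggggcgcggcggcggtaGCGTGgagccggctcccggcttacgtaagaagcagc
Bnip3: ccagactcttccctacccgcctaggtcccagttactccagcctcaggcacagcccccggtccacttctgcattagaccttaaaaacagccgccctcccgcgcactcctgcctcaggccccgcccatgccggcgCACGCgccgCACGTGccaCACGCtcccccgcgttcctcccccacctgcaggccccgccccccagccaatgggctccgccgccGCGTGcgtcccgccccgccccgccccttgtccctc
Slc16a3: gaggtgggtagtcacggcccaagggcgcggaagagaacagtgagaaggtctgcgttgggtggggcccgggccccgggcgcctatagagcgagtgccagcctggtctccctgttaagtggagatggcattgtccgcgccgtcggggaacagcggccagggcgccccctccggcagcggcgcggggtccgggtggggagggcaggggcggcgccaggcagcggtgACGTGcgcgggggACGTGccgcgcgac
Pdk1: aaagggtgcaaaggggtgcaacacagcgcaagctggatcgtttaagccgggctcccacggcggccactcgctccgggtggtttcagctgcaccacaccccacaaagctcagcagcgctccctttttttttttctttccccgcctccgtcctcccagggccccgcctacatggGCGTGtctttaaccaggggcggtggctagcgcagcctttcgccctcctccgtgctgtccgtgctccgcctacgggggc

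Promoters of 9 of the 10 genes were matched by symbol, all but that of Ndrg1. In the matched promoters 8 of 9 held ACGTG or GCGTG, against 38.6% of the 27025 genes with a promoter in the same table, and 6 of 9 held ACGTG, against 16.57%. Bnip3 held the most matches, 5 in all, and its overlapping pair at 108 and 107 bases before the start is a single CACGTG, a palindrome that E-box factors of the circadian clock also bind and that stood in 6.021% of the 32851 promoter windows. Slc16a3 held ACGTG at 27 and 14 bases before the start, and Ankrd37 at 241 and 6 bases. Pdk1 held 1 GCGTG at 78 bases, Ak4 held GCGTG at 74 and 36 bases, and the first listed window of Vegfa held neither motif. The counts for the 9 genes are from the first listed window of each. A later window of Vegfa held 1 ACGTG and 1 GCGTG, a later window of Ak4 held 2 ACGTG, and a later window of Pdk1 held neither. For the windows of Egln3 and Vegfa and that later window of Ak4, the bases just after the start were not matched in a transcript. These starts are less certain. The genes were chosen by name as known targets of the pathway, so a share above that of all genes can restate that choice and was not tested. These matches describe letters in the windows and were not tested as binding sites.

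The genes differed widely in level. Per kb of exon, mean levels were 79.6 CPM for P4ha1, 32.5 for Vegfa, 23.1 for Egln3, 19.7 for Ndrg1, 15.2 for P4ha2, 10.8 for Bnip3, 6.76 for Pdk1, 5.87 for Slc16a3, 1.45 for Ankrd37 and 0.802 for Ak4. In that order the libraries of neighbouring genes overlapped, except that every P4ha1 library lay above every Vegfa library and every Slc16a3 library above every Ankrd37 library. All 10 passed the filter on low counts.

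Pdk1 encodes a kinase that shuts pyruvate dehydrogenase and so keeps pyruvate out of the citric acid cycle (mm10 chr2:71873224-71903858, plus strand, ENSMUSG00000006494). Its 3 libraries had 34.3, 37.3 and 37.2 CPM at 12 h, then 41.2, 40.9 and 36.7 CPM at 18 h, with 55.1, 54.4 and 51.6 CPM by 24 h, and 48.8, 46.8 and 51.8 CPM at 30 h. At 36 h they had 69.1, 68.6 and 69.1 CPM, at 42 h 46.8, 48.8 and 53.3 CPM, at 48 h 65.1, 66.4 and 62.5 CPM, at 54 h 49.0, 42.8 and 42.2 CPM, and by 60 h 74.1, 64.3 and 60.9 CPM. From 36 h on, every library of a multiple of 12 h lay above every library of the collections between, whereas the 12 h libraries were among the lowest of the course. The fitted difference, multiples of 12 h minus collections between, was 0.31 ± 0.04 on the log2 scale (SE), or 1.24-fold.

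Slc16a3 encodes MCT4, the carrier that exports lactate from glycolytic fibres (chr11:120948480-120960868, plus strand, ENSMUSG00000025161). Its levels ran from 16.2 to 50.5 CPM with a median of 41.1 CPM at the multiples of 12 h, and from 14.2 to 34.5 CPM with a median of 27.3 CPM at the collections between. At 12 and 18 h the means were 17.5 ± 1.44 and 16.2 ± 2.92 CPM, and at 24 and 30 h they were 27.1 ± 1.24 and 28.4 ± 1.80 CPM (SD, n = 3 each). From 36 h on the means separated, while single libraries still touched, with 46.8 ± 4.15, 39.96 ± 4.91 and 44.9 ± 3.84 CPM at 36, 48 and 60 h, and 30.5 ± 4.19 and 29.8 ± 4.45 CPM at 42 and 54 h. Its fitted difference was 0.38 ± 0.06 on the log2 scale.

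Ak4, a mitochondrial adenylate kinase, was the least abundant per kb (chr4:101419277-101466995, plus strand, ENSMUSG00000028527). Its mean CPM over the 9 time points, in order from 12 h to 60 h, was 1.99 ± 0.285, 1.82 ± 0.372, 4.12 ± 0.473, 4.04 ± 0.441, 5.83 ± 0.470, 3.07 ± 0.613, 4.77 ± 0.754, 2.44 ± 0.431 and 5.47 ± 1.88 (SD, n = 3 each). The 3 libraries at 60 h were spread widely, at 7.63, 4.49 and 4.28 CPM. The fitted difference was 0.61 ± 0.10 on the log2 scale, with 0.82, 0.40 and 0.56 in the libraries numbered 1, 2 and 3.

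Bnip3 encodes an outer membrane protein of mitochondria that starts their removal by autophagy (chr7:138890836-138909519, minus strand, ENSMUSG00000078566). The libraries numbered 1, 2 and 3 had 22.5, 23.3 and 17.9 CPM at 12 h, then 20.6, 21.4 and 15.7 CPM at 18 h, with 29.6, 29.7 and 24.8 CPM by 24 h, and 22.5, 22.1 and 19.3 CPM at 30 h. At 36 h they had 31.4, 33.0 and 29.3 CPM, at 42 h 19.4, 20.7 and 19.9 CPM, at 48 h 28.5, 27.8 and 25.2 CPM, at 54 h 17.7, 21.4 and 18.1 CPM, and by 60 h 35.1, 33.3 and 27.2 CPM. All 4 collections between lay below both neighbouring collections in their means, and 14 of the 15 libraries at the multiples of 12 h lay above the highest library between. The fitted difference was 0.47 ± 0.06 on the log2 scale, or 1.39-fold.

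**Figure D1:**
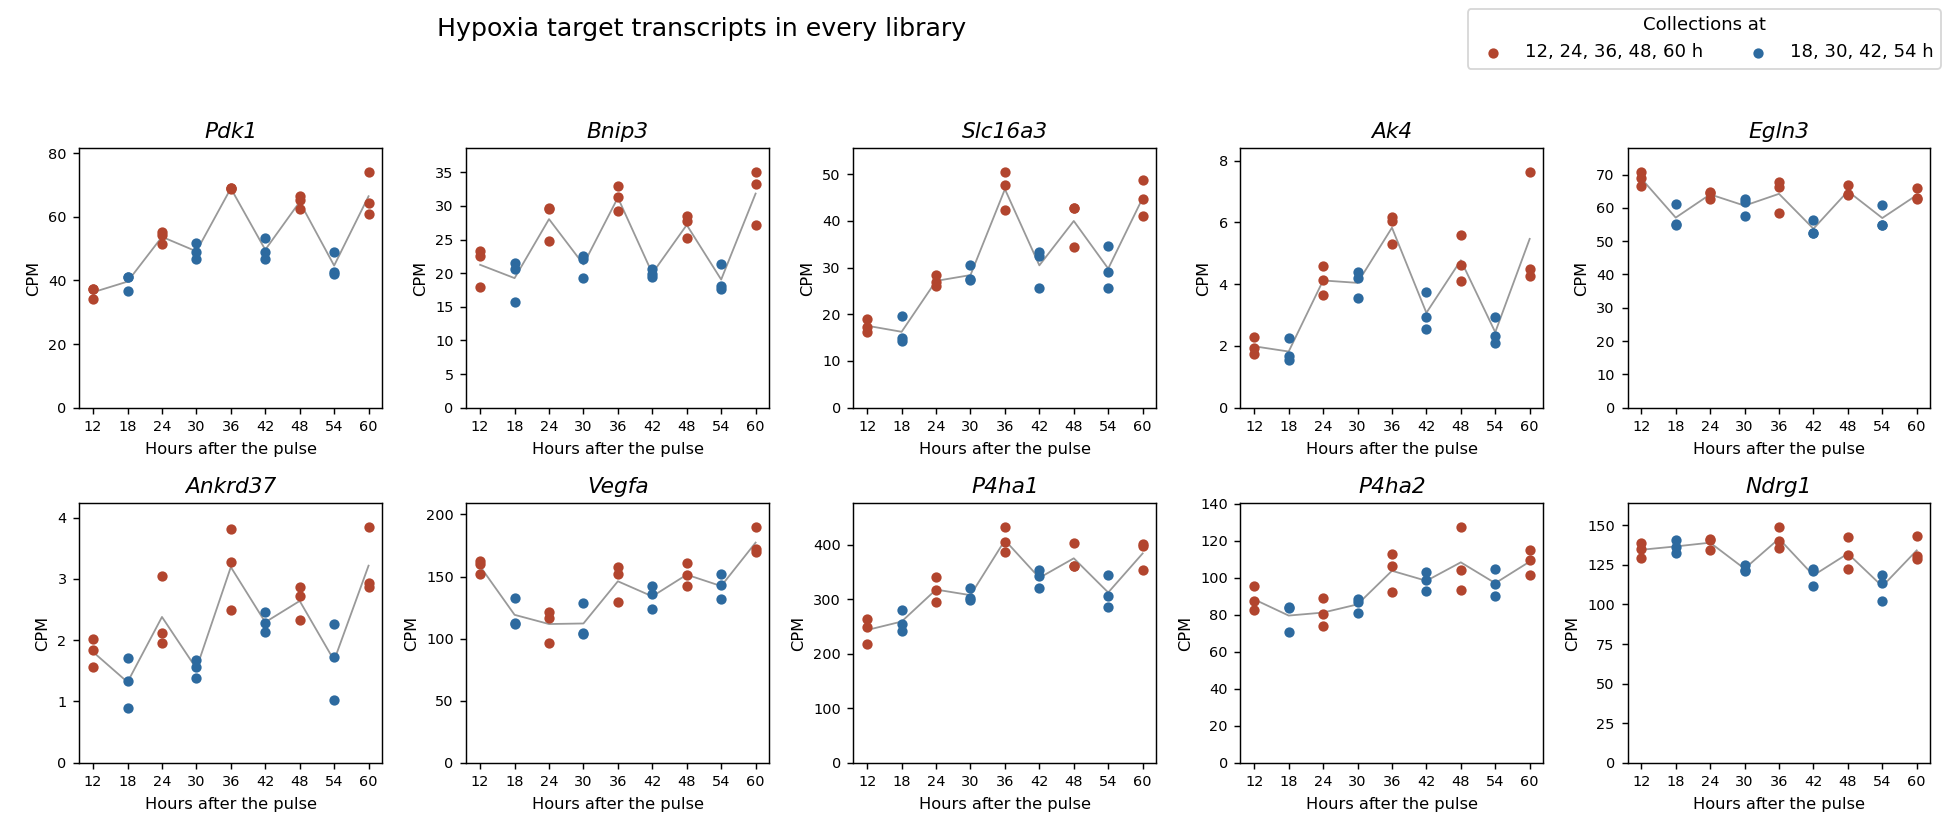
TMM-scaled CPM (y axes, linear from 0) against hours after the pulse (x axes) for the 10 genes. Points are the 3 libraries of each time point, red for 12, 24, 36, 48 and 60 h and blue for 18, 30, 42 and 54 h, and grey lines join the means; from 36 h on Pdk1 runs between 60.9 and 74.1 CPM in red and between 42.2 and 53.3 CPM in blue.

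The other 6 genes alternated with smaller or noisier differences. Egln3 encodes the prolyl hydroxylase PHD3, itself a HIF target (chr12:54178981-54203860, minus strand, ENSMUSG00000035105). It had 58.6, 64.8 and 70.8 CPM (lowest, median and highest) at the multiples of 12 h, and 52.4, 55.7 and 62.7 CPM at the collections between. The sets overlapped in few libraries, with 14 of 15 multiples above the highest library between, and the difference was 0.19 ± 0.03 on the log2 scale.

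Ankrd37, an ankyrin repeat protein induced by hypoxia, had the largest difference of the 10 on the log2 scale, 0.64 ± 0.12, or 1.55-fold (chr8:45996902-46005707, minus strand, ENSMUSG00000050914). It had 1.57, 2.72 and 3.85 CPM (lowest, median and highest) at the multiples of 12 h, and 0.901, 1.69 and 2.47 CPM at the collections between. Its exons overlap those of Lrp2bp by 349 bases and those of Ufsp2 by 57 bases, both on the other strand. How reads were assigned by strand is not given in the sources used here, so its counts are uncertain.

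Ndrg1, a stress-responsive protein of differentiating cells, had 122, 136 and 149 CPM (lowest, median and highest) at the multiples of 12 h, and 102, 122 and 141 CPM at the collections between (chr15:66929318-66969640, minus strand, ENSMUSG00000005125). The sets overlapped widely, with 5 of 15 multiples above the highest library between. At 12, 18 and 24 h its means were 135 ± 4.72, 137 ± 3.94 and 139 ± 3.85 CPM (SD, n = 3 each) and the mean dip at 18 h was 0.0011 on the log2 scale. At 42, 48 and 54 h they were 118 ± 6.03, 132 ± 10.2 and 111 ± 8.29 CPM.

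Vegfa, the main vessel growth factor of muscle, followed another course (chr17:46016993-46032369, minus strand, ENSMUSG00000023951). Its means from 12 h to 60 h were 158 ± 5.78, 119 ± 11.8, 112 ± 13.4, 112 ± 14.1, 146 ± 15.04, 134 ± 9.34, 152 ± 9.38, 142 ± 9.87 and 177 ± 10.9 CPM (SD, n = 3 each). It was high at 12 h, low from 18 to 30 h and highest at 60 h, and 2 of the 4 collections between lay below both neighbours. The fitted difference was 0.22 ± 0.05 on the log2 scale.

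P4ha1 and P4ha2 encode the catalytic subunits of collagen prolyl 4-hydroxylase, which stabilises the collagen triple helix. P4ha1 had 218, 361 and 433 CPM (lowest, median and highest) at the multiples of 12 h, and 243, 305 and 353 CPM at the collections between (chr10:59323296-59373304, plus strand, ENSMUSG00000019916). P4ha2 had 74.0, 95.3 and 127 CPM at the multiples of 12 h, and 70.8, 89.4 and 105 CPM between (chr11:54100095-54131665, plus strand, ENSMUSG00000018906). Both pairs of sets overlapped widely, and P4ha2 had the smallest difference of the 10, 0.12 ± 0.05 on the log2 scale, against 0.17 ± 0.04 for P4ha1.

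Over the 10 genes the differences ran from 0.12 to 0.64 with a median of 0.27 on the log2 scale, against a median of -0.0028 over all 12687 genes tested. The libraries of the sets overlapped in all 10, and 0% of all genes were higher at the multiples of 12 h with no overlap. Of the 40 pairs of a gene and a collection between, 33 had a mean below both neighbouring collections. A dip was taken as the mean of both neighbouring collections minus the collection between, on the log2 scale, in libraries of the same replicate number. Of 120 such dips 116 were above 0, and in 7 of the 10 genes all 12 dips were, as in 0.859% of all genes tested. These counts restate the pattern by which the genes were chosen.

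The median dip over the 10 genes on the log2 scale was 0.19, 0.25, 0.29 and 0.40 at 18, 30, 42 and 54 h, against medians between -0.0067 and 0.0014 over all genes. That the dips lay above 0 restates how the genes were chosen. Pdk1 had mean dips of 0.16, 0.31, 0.43 and 0.55 at 18, 30, 42 and 54 h, and Bnip3 of 0.35, 0.47, 0.54 and 0.62. Ak4 and Ankrd37 had no such order, with 0.64, 0.27, 0.77 and 1.02 for Ak4 and 0.65, 0.79, 0.32 and 0.83 for Ankrd37.

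Whether dips at 42 and 54 h were deeper than those at 18 and 30 h was tested with edgeR's quasi-likelihood test over all genes. Of the 10 genes 0 passed, and 0% of all genes did, with 3 of the 10 and 296 of all genes at an unadjusted p under 0.05. DESeq2 called 4 genes of all, limma-voom called 0, and neither called any of the 10. The difference was 0.26 ± 0.07 on the log2 scale (SE) for Pdk1, with an adjusted p of 0.782, and 0.45 ± 0.19 for Ak4, -0.18 ± 0.22 for Ankrd37 and between 0.0046 and 0.18 for the other 7, each with an adjusted p of 1.

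**Figure D2:**
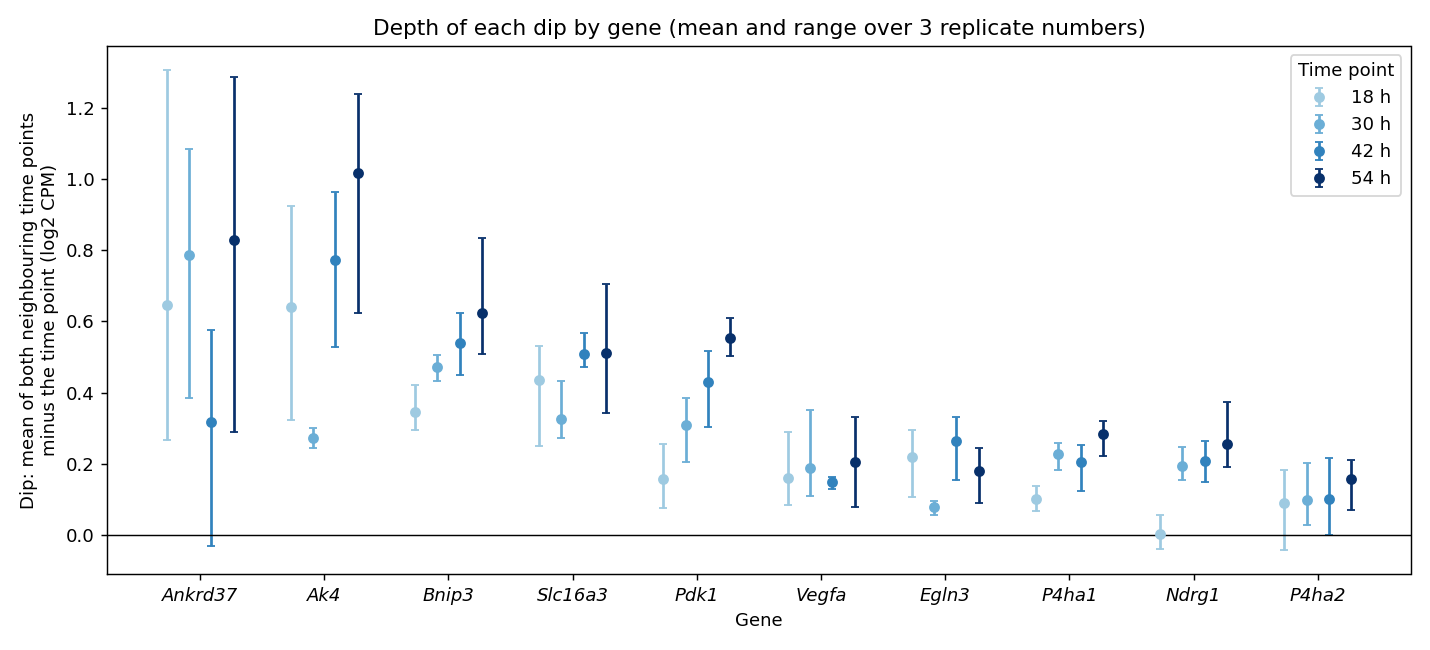
Depth of the dip (y axis, log2 CPM: mean of both neighbouring collections minus the collection) for each gene (x axis) at 18, 30, 42 and 54 h, from light to dark blue. Points are means over the 3 replicate numbers and bars run from the lowest to the highest. All 40 means lie above 0, from 0.0011 for Ndrg1 at 18 h to 1.02 for Ak4 at 54 h, which restates how the genes were chosen.

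Apart from alternating, 7 of the 10 genes rose over the course. The linear trend, fitted beside the alternation and a 24 h wave, passed edgeR's quasi-likelihood test upwards in 7 of 10, against 11.1% of all genes tested, and downwards in 0 of 10, against 8.86%. The median trend was 0.49 over 48 h on the log2 scale, against -0.014 over all genes.

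Slc16a3 rose most, by 1.19 ± 0.19 over 48 h on the log2 scale (SE, adjusted p = 4.98e-05). Pdk1 rose by 0.61 ± 0.13 (adjusted p = 0.00103), P4ha1 by 0.56 ± 0.11 (adjusted p = 3.43e-04) and P4ha2 by 0.43 ± 0.08 (adjusted p = 3.99e-04), all by edgeR. Ankrd37 rose by 0.76 ± 0.20 (adjusted p = 0.00752), Ak4 by 0.82 ± 0.29 (adjusted p = 0.0427) and Vegfa by 0.36 ± 0.09 (adjusted p = 0.00635). Bnip3, at 0.28 ± 0.12, Egln3, at -0.11 ± 0.05, and Ndrg1, at -0.12 ± 0.06, did not pass, with adjusted p of 0.0991, 0.127 and 0.142. With the replicate number as a block in the model, Bnip3 alone of these passed, at 0.29 (edgeR adjusted p = 0.0259).

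Without the 12 h libraries 3 of the 10 passed upwards instead of 7, while 1454 of all genes passed either way instead of 2534. The trends of Pdk1, at 0.20, Ak4, at 0.05, Ankrd37, at 0.49, and P4ha1, at 0.28, then missed the threshold (edgeR adjusted p = 0.298, 0.959, 0.283 and 0.0940), and that of Ndrg1, at -0.25, passed it (adjusted p = 0.0158). The trend of Ak4 was also lost in 13 fits that each left out 1 library (adjusted p = 0.0505 to 0.130), namely any library at 12, 18 or 42 h, 24 h replicate 2 or 3, 48 h replicate 3 or 60 h replicate 1.

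The collections of each set also differed among themselves. Among the 5 multiples of 12 h, 7 of the 10 genes changed, against 17.1% of all genes tested, with edgeR adjusted p from 2.29e-08 for Pdk1 to 0.00924 for P4ha2. Egln3, Ndrg1 and Ankrd37 did not pass (adjusted p = 0.737, 0.846 and 0.0577). Ankrd37 did in DESeq2 (adjusted p = 0.0284) and with the replicate number as a block (edgeR adjusted p = 0.0125). Among the 4 collections between, 5 of the 10 passed, against 7.67% of all genes, namely Slc16a3 (adjusted p = 1.19e-04), Ak4 (0.00816), P4ha1 (0.0207), Pdk1 (0.0215) and Ndrg1 (0.0274). Vegfa missed the threshold in edgeR (adjusted p = 0.0975) and passed it in DESeq2 (adjusted p = 0.0490). With the replicate number as a block Vegfa and P4ha2 passed there (edgeR adjusted p = 0.00540 and 0.00243). Bnip3 changed among the multiples of 12 h (edgeR adjusted p = 0.00764) and not between (adjusted p = 0.996), where its means were 19.3, 21.3, 19.98 and 19.1 CPM at 18, 30, 42 and 54 h. The difference between these outcomes was not tested.

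Leaving out 1 library at a time ended some of these calls and added others. Pdk1 among the collections between was lost without any 1 of the 18 h libraries (edgeR adjusted p = 0.0519, 0.0574 and 0.132) or without 42 h replicate 3 (0.0607). P4ha1 there was lost without 18 h replicate 1 or 3 or 42 h replicate 2 or 3, Ndrg1 without 18 h replicate 1 or 3 or 54 h replicate 1, so that 2 of 10 passed without 18 h replicate 1 or 3 and 3 without 42 h replicate 3. Bnip3 was lost among the multiples of 12 h without 12 h replicate 3 (adjusted p = 0.0692). Ankrd37 passed there without 18 h replicate 1 or 2, 24 h replicate 1, 36 h replicate 3, or 54 h replicate 1 or 3 (adjusted p = 0.0296 to 0.0489), and Vegfa passed among the collections between without 30 h replicate 3 (0.0253).

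No 24 h rhythm was called in the 10 genes. In edgeR's test of a cosine and sine of 24 h, beside the trend and the alternation, 0 of 10 passed, against 0.0552% of all genes tested, with adjusted p from 0.726 for Vegfa to 1.00. An unadjusted p under 0.05 was met by 1 of the 10, against 558 of all 12687 genes, and DESeq2 and limma-voom called 0 of the 10. The fitted swing was 0.31 on the log2 scale for Vegfa and 0.35 for Ankrd37.

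**Figure D3:**
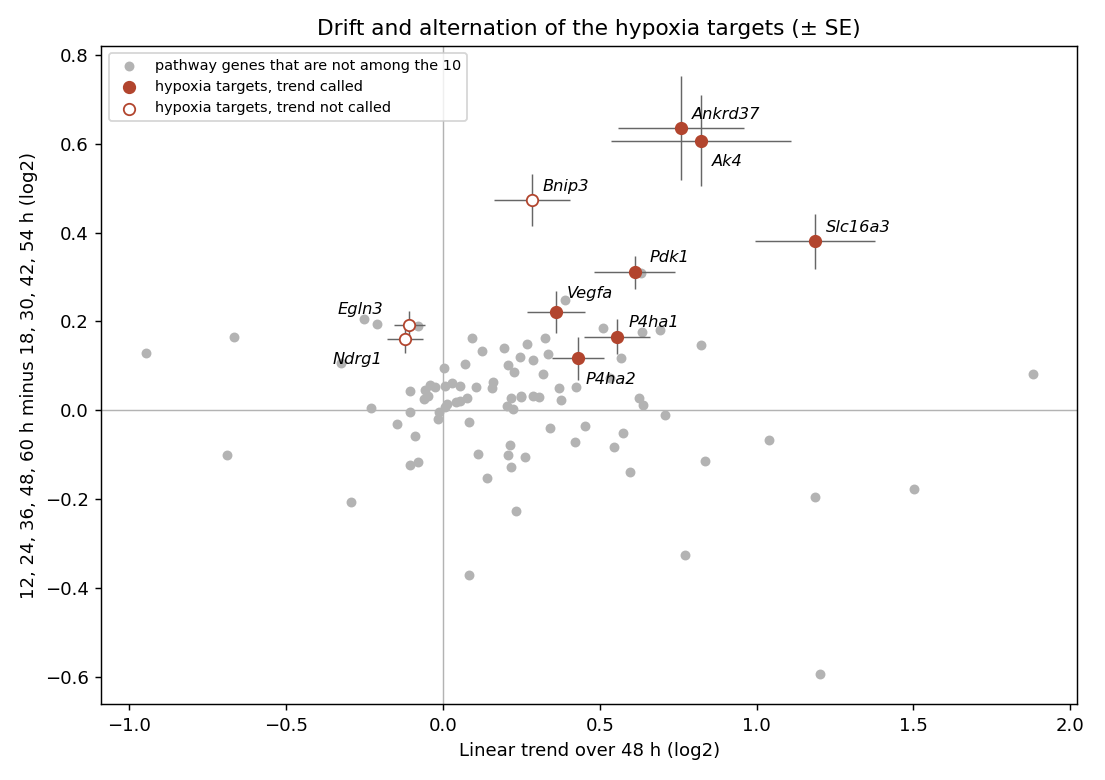
Alternation (y axis, collections at 12, 24, 36, 48 and 60 h minus collections at 18, 30, 42 and 54 h, log2) against linear trend (x axis, log2 over 48 h) for the 10 genes (red, filled where the trend passed at adjusted p under 0.05, bars ± SE) and for tested pathway genes that are not among them (grey). The 10 lie between 0.12 and 0.64 on the y axis, with Slc16a3 farthest right of them at 1.19 and Egln3 and Ndrg1 left of 0.

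Beyond the 10 genes, 98 other genes of the hypoxia response were listed by role, of which 90 passed the filter on low counts. The alternation passed edgeR's test upwards in 5 of 90 (5.56%), against 0.772% of all genes tested, and downwards in 3 of 90 (3.33%), against 1.47%. With the 12 h libraries left out, 10 of the pathway genes were higher, while all genes stood at 153 higher and 84 lower, against 98 and 186 with them. With time point means in limma 0 were called either way. With the replicate number as a block 19 pathway genes were higher and 8 lower, among 462 and 756 of all genes. The median difference of the 90 was 0.03 on the log2 scale, and 58 of 90 were above 0. Thus most of the listed genes did not pass, and those that did went both ways. The lists were drawn up with earlier results of these data known, so their shares against all genes are not an independent check.

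The 5 that were higher at the multiples of 12 h stood in different roles. Pfkl, the liver-type phosphofructokinase of glycolysis, had 94.1, 149 and 202 CPM (lowest, median and highest) at the multiples of 12 h, and 85.2, 123 and 138 CPM at the collections between, a difference of 0.31 ± 0.06 on the log2 scale (edgeR adjusted p = 0.00409). Pgm1, a phosphoglucomutase that links glycogen to glycolysis, had 80.0, 100.2 and 109 CPM at the multiples of 12 h, and 74.5, 87.6 and 95.0 CPM between, a difference of 0.15 ± 0.03 (adjusted p = 0.00399). In both genes the sets overlapped and all 12 dips were above 0. Ero1l, an oxidase of protein folding in the endoplasmic reticulum, differed by 0.21 ± 0.04 (adjusted p = 0.00861), Kdm3a, a histone demethylase, by 0.19 ± 0.05 (0.0389), and Hmox1, haem oxygenase 1, by 0.19 ± 0.05 (0.0423). Leaving out 1 library ended the call of Kdm3a in 18 of 27 fits and that of Hmox1 in 18, with adjusted p of at most 0.0896 and 0.0798. Without the 12 h libraries Ero1l, at 0.09, Kdm3a, at 0.20, and Hmox1, at 0.13, missed the threshold, with Kdm3a nearest (adjusted p = 0.0553).

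Genes that were lower at the multiples of 12 h ran against the 10 genes. Ppp1r3c, which targets protein phosphatase 1 to glycogen, had 1.29, 2.07 and 3.77 CPM (lowest, median and highest) at the multiples of 12 h, and 1.64, 2.70 and 6.07 CPM at the collections between, a difference of -0.59 ± 0.13 on the log2 scale (edgeR adjusted p = 0.00956). Edn1, endothelin 1, had 3.15, 6.15 and 8.53 CPM at the multiples of 12 h, and 4.24, 7.39 and 8.42 CPM between, a difference of -0.32 ± 0.08 (adjusted p = 0.0251). The sets overlapped in both genes, and for Edn1 0 of the 12 dips were above 0. Leaving out 1 library ended the call of Edn1 in 8 of 27 fits (adjusted p at most 0.0616), and without the 12 h libraries it stood at -0.19 (0.350).

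Each role had at most 1 gene called higher and 1 lower, where 0.772% and 1.47% of all genes tested were. With 2 to 20 tested genes, a role is too small for its share to be read against these. Of glucose entry and glycolysis 1 of 20 tested genes was higher and 0 lower, of glycogen and phosphoglucomutase 1 and 1 of 6, of collagen processing and matrix 1 and 1 of 10, and of vessel growth and secreted signals 0 and 1 of 13. Histone demethylases and transcription had 1 higher and 0 lower of 7, iron and haem 1 and 0 of 2, and the roles of oxygen sensing (9 tested), mitochondria, mitophagy and stress (8), acid-base and carbonic anhydrases (3) and other hypoxia-induced genes (12) had 0 either way in edgeR. At an unadjusted p under 0.05 these last 4 roles had 2, 5, 0 and 3 genes, against 1578 of all 12687 genes tested. DESeq2 called 0, 1, 0 and 1 of their genes. All 8 tested genes of mitochondria, mitophagy and stress were above 0, with a median of 0.12 on the log2 scale and no call.

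The tested genes listed under oxygen sensing and HIF subunits did not pass in the main test. The prolyl hydroxylase gene Egln3 is not in that list, since it is among the genes chosen for alternating, and its alternation was not tested. Hif1a, the regulated subunit, had 235, 348 and 392 CPM (lowest, median and highest) at the multiples of 12 h, and 265, 319 and 345 CPM at the collections between, a difference of 0.11 ± 0.04 on the log2 scale (edgeR adjusted p = 0.200). Egln1, the main prolyl hydroxylase, differed by 0.10 ± 0.03 (adjusted p = 0.132). Arnt, Siah2, Egln2, Vhl, Cited2, Hif1an and Arnt2, which encode partner subunits, hydroxylases, ubiquitin ligase components and inhibitors of the pathway, lay between -0.12 and 0.03, and Epas1 and Hif3a were too low to be tested. Without the 12 h libraries Hif1a and Egln1 passed, at 0.21 (adjusted p = 0.00949) and 0.14 (adjusted p = 0.0372). With the replicate number as a block in the model both passed as well, at 0.11 and 0.10 (edgeR adjusted p = 0.0112 and 0.0345). HIF protein was not measured.

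The trend of the listed genes was upwards more often than downwards, in 39 and 4 of 90, against 11.1% and 8.86% of all genes tested, with a median of 0.21 over 48 h on the log2 scale. In glucose entry and glycolysis 14 of 20 rose and 0 fell. The 24 h rhythm was called in 0 of 90 by edgeR, DESeq2 and limma-voom. In edgeR 7 of the 90 had an unadjusted p under 0.05, against 558 of all 12687 genes. The count that rose was 21 without the 12 h libraries, where 1454 of all genes passed either way, against 2534 with them. Since the lists were drawn up with earlier results of these data known, these shares too are a description.

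**Figure D4:**
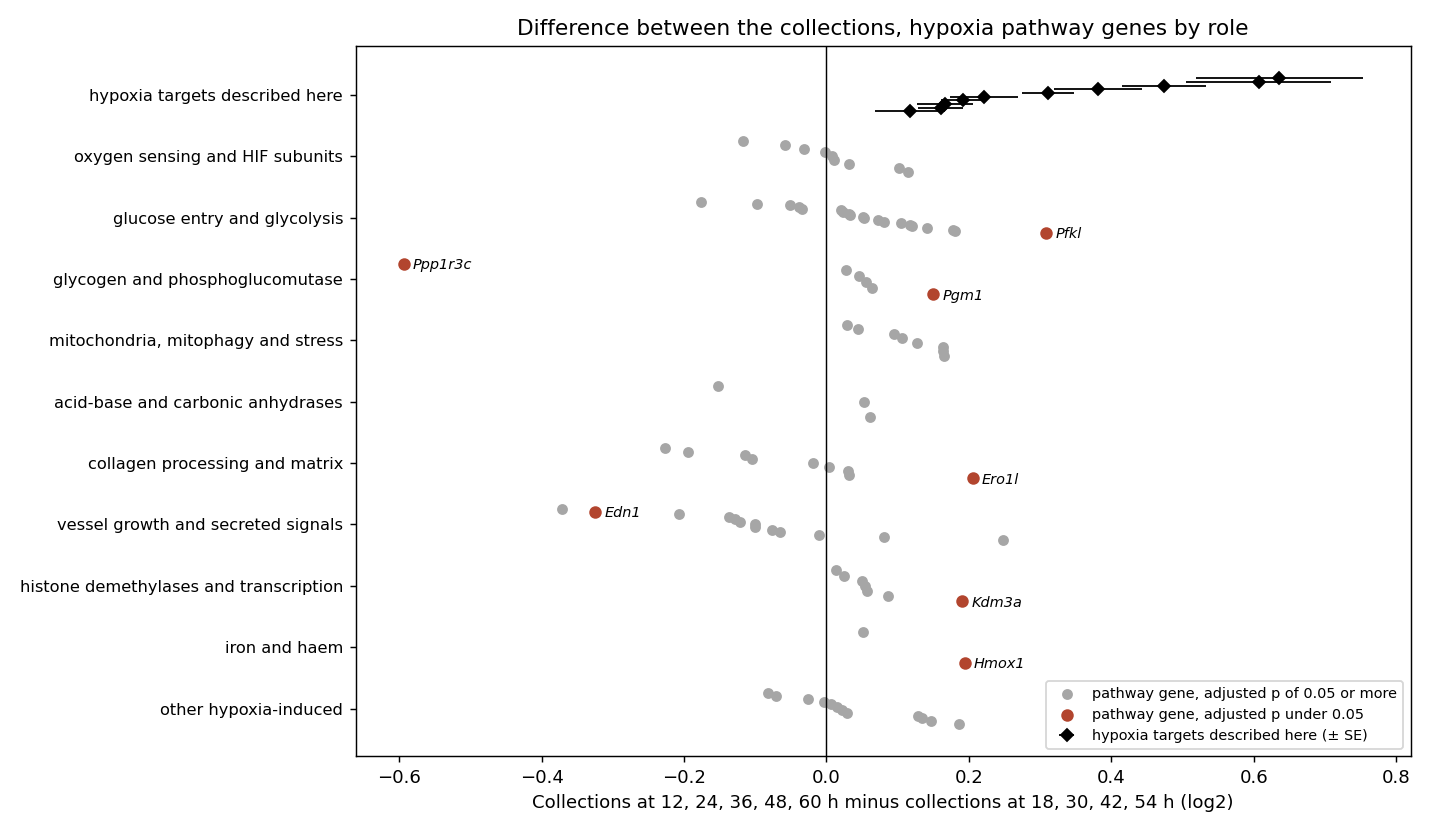
Difference between the collections at 12, 24, 36, 48 and 60 h and those at 18, 30, 42 and 54 h (x axis, log2) for the 10 genes described here (black diamonds, ± SE) and tested pathway genes by role (rows). Points are single genes, and those in red are named and passed at adjusted p under 0.05 in edgeR, from Ppp1r3c at -0.59 to Pfkl at 0.31.

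Other programmes that could move with the collections were read beside the hypoxia targets, from lists also drawn up with earlier results of these data known. Of the 10 listed targets of ATF4, the transcription factor of amino acid and stress responses, 3 were higher at the multiples of 12 h, against 0.772% of all genes, and all 10 were above 0, with a median of 0.15 on the log2 scale. Against both neighbouring collections the pattern was less uniform. The mean of the 12 dips ran from -0.05 to 0.17 over these targets, and 5 to 10 of the 12 dips were above 0. Pck2, the mitochondrial phosphoenolpyruvate carboxykinase, differed by 0.18 ± 0.04 (edgeR adjusted p = 0.00771), but by -0.01 without the 12 h libraries. Txnip, a glucose-induced inhibitor of thioredoxin and glucose uptake and the only one of 5 tested glucose-sensing genes to pass, had 104, 118 and 145 CPM (lowest, median and highest) at the multiples of 12 h, and 94.0, 103 and 108 CPM at the collections between. It differed by 0.22 ± 0.03 (adjusted p = 3.06e-05), with all 12 dips above 0.

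Of 10 early response genes 1, the serum-induced factor Egr2, was lower at the multiples of 12 h, at -0.30 ± 0.07 on the log2 scale (edgeR adjusted p = 0.0142), against 1.47% of all genes. It stood at -0.10 without the 12 h libraries (adjusted p = 0.745). Of 8 cold-inducible and heat shock genes none passed, the nearest being Hspa1b at -0.21 ± 0.06 (adjusted p = 0.0516). An unadjusted p under 0.05 was met by 2 of the 8, against 1578 of all 12687 genes. DESeq2 called 1, Hspa1b (adjusted p = 0.0228). Of 10 myotube markers none passed in edgeR, DESeq2 or limma-voom, with Myog nearest at 0.09 ± 0.04 (edgeR adjusted p = 0.284) and alone at an unadjusted p under 0.05. Without the 60 h libraries Myog passed, at 0.18 (edgeR adjusted p = 0.004965). Id3, an inhibitor of muscle differentiation factors, was lower at -0.22 ± 0.05 (adjusted p = 0.0142) as 1 of 5 myoblast markers, but at -0.0036 without the 12 h libraries (adjusted p = 0.996). Of 5 tested immune and endothelial markers none passed in any of the 3 tools, with 2 at an unadjusted p under 0.05 in edgeR and Tek nearest at 0.50 ± 0.16 (adjusted p = 0.136), and no adipocyte marker could be tested. The part of these programmes and cell types in the alternation of the hypoxia targets was not tested.

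The mean profile of the 10 genes, centred for each gene on the log2 scale, was -0.25, -0.39, 0.02, -0.11, 0.35, -0.05, 0.24, -0.17 and 0.35 from 12 h to 60 h. Among 11520 other genes that averaged 1 CPM or more, the 10 with the highest Pearson correlation to it over the 27 libraries were Pfkl (r = 0.953), Tgm2 (0.839), Acsl3 (0.838), Pgm1 (0.834), Pgam1 (0.832), Rflnb (0.830), Rab38 (0.826), Mgarp (0.824), Clk3 (0.824) and Prelid2 (0.818). Of these, 3 stood in the pathway lists, namely Pfkl, Pgm1 and Pgam1. The correlations describe likeness of course and share the libraries, their depth and their time points.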

How the data were processed

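Per the labels' protocols, the stranded libraries were made from total RNA after removal of ribosomal RNA. The authors deposited raw counts, whole reads per gene and not normalized, for 27 libraries. The submitters' processing notes name Trim Galore 0.4.0, cutadapt 1.9.1, featureCounts and the mm10 genome. For the aligner, the annotation release and the strand setting of the counting, the sources used here give nothing. Symbols and positions came from GENCODE M21, which named 20327 genes and left 119 without a symbol.

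Libraries were grouped by the time point in their labels. Whether libraries of a time point come from separate cultures is not stated. The p-values then measure the spread between libraries alone, and that spread may be technical. In all 27 pairs of libraries of a time point the counts differed by more than sampling noise (chi-square per degree of freedom 5.81 to 46.9).

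Low counts were removed by filterByExpr of edgeR (minimum count 10), leaving 12687 genes to test and 7759 untested. CPM, except in the marker sums, were scaled by TMM (factors 0.979 to 1.03), and 2 was the prior count of log2 CPM. The biological coefficient of variation was 11.8%. Tests were edgeR quasi-likelihood F tests over all 27 libraries called at an adjusted p under 0.05, by Benjamini-Hochberg over all tested genes. The alternation, the changes within each set and the dips were contrasts of the 9 time point means; trend and 24 h rhythm came from a model of time, cosine, sine and the alternation. Scripts were tested on simulated counts.

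The members and lists were chosen with earlier results of these data known. Named are the 10 members, up to 4 called genes of each pathway list with the smallest p, all tested oxygen sensing genes, the 10 genes most alike in course (no predicted genes or pseudogenes), and the gene with the smallest p of each context list. A gene that the rule chose is counted but not reported here. Lists were the 10 pathway roles, markers of myotubes, myoblasts, immune and endothelial cells and adipocytes, early response, cold-inducible and heat shock, ATF4 target and glucose-sensing genes. Alternatives were DESeq2, limma-voom, other scalings, filters and prior counts, the replicate number as a block, libraries, replicate numbers or end time points left out, an adjusted p under 0.01, a fold of at least 1.2, and other contrasts and models. The tools were edgeR 4.0.16, DESeq2 1.42.0 and limma 3.58.1 in R 4.3.3, with pandas 2.3.3, numpy 2.4.6 and matplotlib 3.10.9 for tables and plots.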

Additional observations from a re-analysis of the deposited data

How the results depend on the processing

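The differences of the 10 genes between the collections remained above 0 in all 36 alternatives run for each. The genes were chosen by this difference in the same libraries, so its sign restates the choice. Fits in limma-voom, with other filters, with time point means or without a replicate number were not among the 36. Over the 36, P4ha2 had the lowest value, 0.08 on the log2 scale without the 60 h libraries. Without the 12 h libraries Ak4 moved to 0.87, Slc16a3 to 0.61, Pdk1 to 0.47 and P4ha1 to 0.29. Of their tests 15 became called and 55 were lost over all alternatives run, and of the alternation values of named list genes 12 became called, 117 were lost and 1 reversed, Pck2 at -0.0134 without the 12 h libraries (edgeR adjusted p = 0.973). The trend of Ak4 was lost in 18 settings. Hmox1 was lost in 29, Kdm3a in 27, Edn1 in 16, Ero1l and Id3 in 8 each, Egr2 in 7, and Pfkl, Pgm1 and Ppp1r3c in 4 each.

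Counts over all genes depended on the settings more than the values did. Without the 12 h libraries 153 genes were higher at the multiples of 12 h and 84 lower, against 98 and 186 with them, 10 pathway genes were higher, 1454 genes had a trend, and 3 of the 10 genes and 21 pathway genes rose. At an adjusted p under 0.01 these were 47 higher, 96 lower and 3 pathway genes higher, with 1415 genes changed among the multiples of 12 h, 559 among the collections between, of them 2 of the 10, and 1509 with a trend. With the trend and 24 h terms in the model 29 were higher, 69 lower and 1 pathway gene higher. A fold of at least 1.2 left 34, 66 and 1, the contrast with both neighbours 3 pathway genes higher, and time point means in limma 0 of each kind, 0 pathway genes included. DESeq2 called 4 genes for the dips of the first day against the second.

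Libraries with the same replicate number at different time points tended to deviate together, with r over 0.1 in 91 of 108 pairs (range -0.056 to 0.69, median 0.33, against -0.19 for different numbers), and 26 of 27 libraries were closest to their own number. Since not every pair was over 0.1 and the labels give the numbers no meaning, the main tests did not pair the libraries by number. The spread shared by a number thus stayed in their error, and a gene not called in them may be called with the block. The dips given as a description were taken within a number. With the replicate block 462 genes were higher and 756 lower, 19 pathway genes higher and 8 lower, 4641 changed among the multiples of 12 h, 2377 among the collections between, 2 had a different dip and 4114 a trend. The block added calls for the trend of Bnip3 (edgeR adjusted p = 0.0259), Ankrd37 among the multiples of 12 h (0.0125), Vegfa and P4ha2 among the collections between (0.00540 and 0.00243), and the alternation of Hif1a, Egln1 and Hspa1b (0.0112, 0.0345 and 0.00952).

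Leaving out libraries or all libraries of a replicate number gave 10 to 114 genes higher and 32 to 194 lower, 0 to 6 pathway genes higher and 1 to 3 lower, 815 to 2272 genes changed among the multiples of 12 h and 231 to 984 among the collections between, 0 to 1 for the dips (1 without 42 h replicate 1), 1209 to 2741 with a trend and 2 to 8 with a rhythm. Of the 10 genes 4 to 8 changed among the multiples of 12 h, 1 to 6 between, 0 had a rhythm or a different dip and 5 to 7 rose, and 29 to 42 pathway genes rose. Leaving out a single library kept the counts of all genes within 71 to 114 higher and 142 to 194 lower. Pathway genes higher numbered 3 without 12 h replicate 3, 18 h replicate 2, 24 h replicate 3, 30 h replicate 2, 42 h replicate 1, 48 h replicate 3, 54 h replicate 1 or 60 h replicate 1. Median of ratios scaling moved the median of all genes by 0.0016. The cause of these changes was not tested. Ak4 and Ankrd37 were the least abundant of the 10 per kb, and the part of depth in their spread was not tested.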
